A study of Mus musculus with 48 samples.

Results

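The genes described here are 5 of the 24264 transcripts in a count table of reprogramming to induced pluripotent stem cells (iPSCs): 1110032A04Rik (now named Sptssb), Tac2, Acsbg1, Zdbf2, and Isyna1. They were picked from measured values of these same libraries, either because their level was higher in OKMS than in MKOS E-CAD+ 3NG- cells or because their step from 3NG- to 3NG+ cells had opposite signs with the 2 cassettes. Those contrasts are therefore given as values with no test, and tests were run only between libraries that the choice did not use, although all 48 libraries entered the shared estimate of the spread.

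MKOS and OKMS name polycistronic cassettes that hold Oct4, Klf4, c-Myc, and Sox2 in the order of their letters, inserted together with rtTA driven by the CAG promoter into an intron of Sp3 in TNG embryonic stem cells (ESCs), which carry a Nanog-GFP reporter. The cassettes also differ in Klf4. Per the paper, MKOS holds a long Klf4, and OKMS a short form without the N-terminal amino acids, which yields less KLF4 protein. Mouse embryonic fibroblasts (MEFs) were made from chimeric embryos of these ESCs and mixed with an excess of wild-type MEFs, and the cassette was switched on with doxycycline in the presence of vitamin C. On day 10 per the series' design text (the culture protocol gives 10 or 15 days), cells were sorted on E-cadherin (E-CAD), CD44, ICAM1, and Nanog-GFP. Here 2NG- stands for CD44- ICAM1- Nanog-GFP- cells, 3NG- for CD44- ICAM1+ Nanog-GFP- cells, and 3NG+ for CD44- ICAM1+ Nanog-GFP+ cells. There were 8 sorted populations with 3 libraries each: for each cassette the E-CAD+ 2NG-, 3NG-, and 3NG+ cells, plus, for OKMS alone, the E-CAD- cells of the 2NG- and 3NG- gates. The other 12 conditions had 2 libraries each: WT, MKOS, and OKMS MEFs, MKOS and OKMS iPSCs without doxycycline (-dox) and in 2i (a medium with kinase inhibitors), E14 ESCs, TNG ESCs, TNG MKOS ESCs, TNG OKMS ESCs, and the iPSC line D6, which carries a piggyBac MKOS cassette. MKOS and OKMS cells derive from separately targeted ESC lines, so a difference between cassettes cannot be told apart from a difference between those lines. The order of the factors and the form of Klf4 cannot be told apart in these libraries either.

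In reprogramming, fibroblasts first lose mesenchymal genes and gain epithelial ones, and the pluripotency network, marked here by Nanog-GFP, comes on late. The 5 genes belong to separate pathways. 1110032A04Rik encodes a small subunit of serine palmitoyltransferase, the enzyme that starts sphingolipid synthesis by joining serine to a fatty acyl-CoA, and Acsbg1 encodes an acyl-CoA synthetase that activates long-chain fatty acids and is known from brain. Tac2 encodes neurokinin B, a tachykinin peptide of hypothalamic neurons that also make kisspeptin and dynorphin. Zdbf2 is an imprinted gene, expressed from the paternal allele, and has a distant upstream start that gives a longer transcript in the early embryo. Isyna1 encodes inositol-3-phosphate synthase, which makes inositol from glucose 6-phosphate.

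STRT sequencing reads the 5′ end of a transcript, so the DNA just before each start is shown here to place the counted reads, together with motifs of the kind bound by cassette factors. All positions are on GRCm38.p6, the mm10 build, and the sequences are from RefSeq. 1110032A04Rik lies on the minus strand at chr3:69819538-69861363, Tac2 on the plus strand at chr10:127724478-127731768, Acsbg1 on the minus strand at chr9:54604886-54661885, Zdbf2 on the plus strand at chr1:63200358-63314576, and Isyna1 on the plus strand at chr8:70594481-70597290, and all 5 are protein-coding. The 250 bases before the start are chr3:69859895-69860144 for 1110032A04Rik, chr10:127724228-127724477 for Tac2, chr9:54661886-54662135 for Acsbg1, and chr8:70594231-70594480 for Isyna1. The start used for 1110032A04Rik, at base 69859894, lies inside the gene's span, downstream of its 5′ end, and whether the counted reads begin there was not tested. For Zdbf2 the second of 2 RefSeq starts is shown, chr1:63273019-63273268, because the counted transcript begins there and not at the upstream start.
1110032A04Rik: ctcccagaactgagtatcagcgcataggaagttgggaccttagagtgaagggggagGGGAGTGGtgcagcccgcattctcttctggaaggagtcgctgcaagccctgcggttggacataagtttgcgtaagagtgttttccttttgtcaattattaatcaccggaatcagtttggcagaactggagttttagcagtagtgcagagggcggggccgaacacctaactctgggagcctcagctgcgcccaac
Tac2: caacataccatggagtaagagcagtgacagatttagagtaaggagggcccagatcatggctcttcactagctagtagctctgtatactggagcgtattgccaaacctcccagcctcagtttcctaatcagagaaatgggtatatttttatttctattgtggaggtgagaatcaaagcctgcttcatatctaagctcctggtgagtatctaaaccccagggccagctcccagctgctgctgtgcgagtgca
Acsbg1: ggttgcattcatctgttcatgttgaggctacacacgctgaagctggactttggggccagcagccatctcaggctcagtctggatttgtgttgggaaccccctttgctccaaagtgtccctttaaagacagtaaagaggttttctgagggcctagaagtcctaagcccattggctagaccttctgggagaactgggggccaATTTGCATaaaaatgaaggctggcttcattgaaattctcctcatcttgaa
Zdbf2: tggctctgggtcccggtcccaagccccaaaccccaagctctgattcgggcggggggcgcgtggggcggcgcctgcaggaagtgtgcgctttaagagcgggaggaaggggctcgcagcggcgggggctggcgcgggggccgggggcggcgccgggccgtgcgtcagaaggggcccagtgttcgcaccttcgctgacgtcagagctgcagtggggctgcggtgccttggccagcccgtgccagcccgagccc
Isyna1: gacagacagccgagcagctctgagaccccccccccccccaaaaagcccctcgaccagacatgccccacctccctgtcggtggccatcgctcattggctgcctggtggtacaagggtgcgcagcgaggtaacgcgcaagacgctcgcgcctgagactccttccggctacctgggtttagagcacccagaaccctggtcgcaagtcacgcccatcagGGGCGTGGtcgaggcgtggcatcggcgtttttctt
Each is written 5′ to 3′ on the gene's own strand, and capitals mark matches to 3 motifs searched on both strands: the KLF-type GGGNGTGG, the octamer ATGCAAAT, and the E-box CACGTG. The KLF-type motif, present in 17.6% of the 32851 RefSeq promoters (250 bases before to 50 after the start), was found once each in 1110032A04Rik and Isyna1. The octamer, present in 1.74% of promoters, was found once, in Acsbg1, where the printed strand carries its reverse complement. None of the 5 windows held CACGTG, which 7.15% of promoters do. The 5 differed widely in CpG content, with 9 CpG in the window of 1110032A04Rik, 2 in Tac2, 1 in Acsbg1, 26 in Zdbf2, and 19 in Isyna1. A match is only a match of letters and does not show binding. The reads of 1110032A04Rik, Tac2, Acsbg1, and Zdbf2 were 100% uniquely placed, as were 99.7% of those of Isyna1.

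Levels are given as CPM, the reads of a transcript per 1000000 reads on transcripts of its library. Libraries held between 1429717 and 14174725 such reads (median 6243254 over 48 libraries), so 3 reads, taken as the floor, were worth 0.212 to 2.10 CPM. This floor, like the read-count intervals below, covers counting error only, since PCR copies were not removed. The shallowest library was replicate 2 of OKMS 3NG+ cells. Of the genes behind the sorting markers, Cdh1, which encodes E-CAD, was at 116 to 182 CPM in all 12 E-CAD+ Nanog-GFP- libraries, at 4.24 to 51.5 CPM in the 6 E-CAD- libraries, and at most 0.687 CPM in MEFs. Icam1 was at most 4.34 CPM in 2NG- and at least 5.18 CPM in 3NG- libraries. In 3NG+ libraries, also sorted as ICAM1+, it was 1.38 to 12.2 CPM with MKOS and 4.20 to 14.2 CPM with OKMS. Those ranges overlapped that of the 2NG- libraries. Cd44 did not follow its gate closely either, with 96.1 to 159 CPM in the CD44- sorted OKMS E-CAD- 3NG- cells. MEFs had 65.4 to 119 CPM (WT), 104 and 123 CPM (MKOS), and 252 and 362 CPM (OKMS), so these cells lay below the OKMS MEFs. Nanog was 17.9 to 45.0 CPM in OKMS E-CAD+ 3NG- and 81.8 to 97.3 CPM in OKMS 3NG+ cells, but overlapped between MKOS 3NG- (22.3 to 75.7 CPM) and MKOS 3NG+ cells (51.1 to 90.7 CPM).

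Replicate 3 of the OKMS Nanog-GFP- populations stood apart from replicates 1 and 2 in 3 of the 5 genes. In each of the 4 populations the mean of replicates 1 and 2 was 11.2 to 30.2 times replicate 3 for 1110032A04Rik, 8.80 to 16.9 times for Tac2, and 3.07 to 13.9 times for Acsbg1, but only 0.692 to 1.78 times for Zdbf2 and 1.62 to 2.17 times for Isyna1. These 4 replicate 3 libraries held 3673389 to 14174725 reads, and the 8 libraries of replicates 1 and 2 held 2868191 to 11206126. Other markers moved with it. The summed level of 7 pluripotency genes in E-CAD+ 3NG- cells was 2177 and 1514 CPM in replicates 1 and 2 and 5160 CPM in replicate 3, and in E-CAD+ 2NG- cells it was 900 and 707 against 2983 CPM. It was 144 to 231 CPM in all 6 E-CAD- libraries, where the ratio of replicates 1 and 2 to replicate 3 was still 17.0 and 17.1 for 1110032A04Rik. The sum of the 5 blood-cell markers in the table, of which Hbb-b1 was at 0, was 358 and 337 against 21.0 CPM in E-CAD+ 3NG- cells, 237 and 288 against 125 CPM in E-CAD+ 2NG- cells, 615 and 676 against 56.4 CPM in E-CAD- 3NG- cells, and 696 and 879 against 127 CPM in E-CAD- 2NG- cells. In MKOS 3NG- cells the same sum was 1787, 998, and 148 CPM. The sum of 5 endoderm markers was higher in replicate 3 of each population, at 60.7 CPM against 18.2 and 4.76 in E-CAD+ 3NG-, 40.4 against 0.682 and 0 in E-CAD+ 2NG-, 12.5 against 1.98 and 3.14 in E-CAD- 3NG-, and 11.6 against 3.23 and 8.24 in E-CAD- 2NG- cells. The sum of the 7 neural markers in the table was higher in replicate 3 of both E-CAD- populations (629 against 241 and 167 CPM in 2NG- and 104 against 70.0 and 77.7 CPM in 3NG- cells) and lower in replicate 3 of both E-CAD+ populations. The fibroblast sum was 203 to 1039 CPM in replicates 1 and 2 and 304 to 1161 CPM in replicate 3, and the epithelial sum 77.3 to 1132 and 92.0 to 813 CPM. Cd44 in E-CAD+ 3NG- cells was 135 and 125 against 9.18 CPM. The part of these markers in the results was not tested, and in bulk RNA fewer expressing cells and less RNA per cell cannot be told apart.

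**Figure D1:**
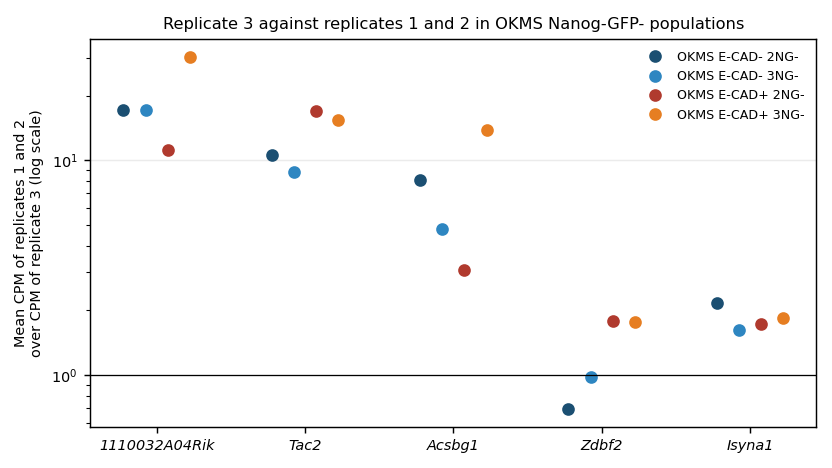
The mean CPM of replicates 1 and 2 divided by the CPM of replicate 3 (log axis), for each of the 5 genes in the 4 OKMS Nanog-GFP- populations. The ratios of 1110032A04Rik, Tac2, and Acsbg1 lie between 3.07 and 30.2, and those of Zdbf2 and Isyna1 between 0.692 and 2.17.

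In E-CAD+ 3NG- cells, where the choice was made, the lipid genes and Tac2 were at or near 0 with MKOS and well above it with OKMS. 1110032A04Rik had 194.6, 189.7, and 6.36 CPM in the 3 OKMS libraries and no read in the 3 MKOS libraries. The mean of the OKMS libraries was 1045-fold the floor of 3 reads over the MKOS group, and their pooled level was 1226-fold. The exact 95% lower bound of the pooled ratio was 997, counting error only. Acsbg1 had 76.1, 87.1, and 5.89 CPM with OKMS and 5 reads in all with MKOS, a log2 difference of 8.08 ± 1.42 (SE). Tac2 had 40.4, 24.99, and 2.12 CPM with OKMS and no read with MKOS. Its OKMS level was 181-fold the same floor as a mean of libraries and 231-fold as a pooled level (exact 95% lower bound 188). Each of these genes was thus separated between the cassettes even in replicate 3, although its OKMS level there was a small part of that in the other libraries. Zdbf2 was 55.6 ± 17.8 CPM (SD, n = 3) with OKMS and 4.01 ± 1.30 CPM with MKOS, a log2 difference of 3.90 ± 0.51. Isyna1 lay at the edge of the choice by level, with 70.3, 95.2, and 45.0 CPM with OKMS and 39.1, 52.3, and 67.6 CPM with MKOS. Its ranges overlapped and the log2 difference was 0.53 ± 0.31. Its step to 3NG+ cells had opposite signs with the cassettes, and which ground chose it is not stated.

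**Figure D2:**
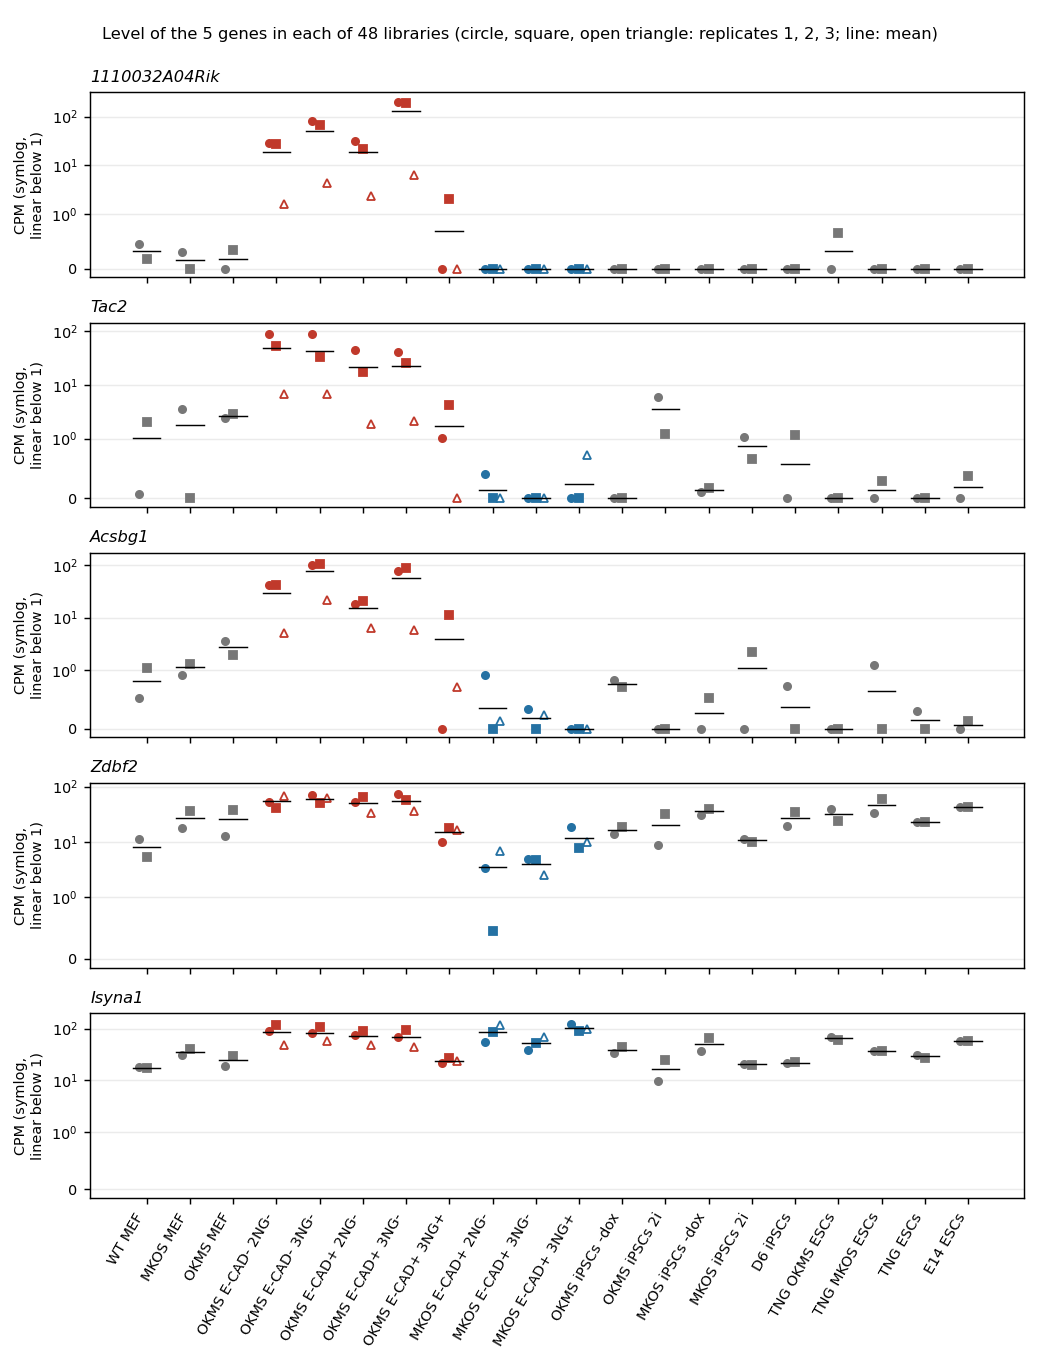
CPM of every library for the 5 genes in the 20 conditions, on an axis that is linear near 0 and logarithmic above; red symbols are sorted OKMS cells, blue symbols sorted MKOS cells, and grey symbols all others, with circles, squares, and open triangles for replicates 1, 2, and 3 and a line at the mean. Outside OKMS Nanog-GFP- cells, 1110032A04Rik is at most 2.10, Tac2 at most 5.81, and Acsbg1 at most 11.2 CPM, whereas Zdbf2 and Isyna1 have reads in every library.

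Over all 20 conditions, 3 of the genes had almost all of their reads in the 12 OKMS Nanog-GFP- libraries, which include E-CAD- cells. 1110032A04Rik had 99.5% of its 4260 reads there, Acsbg1 95.2% of its 3013, and Tac2 92.6% of its 2394. The 12 libraries include the 3 E-CAD+ 3NG- libraries used in the choice, so these shares are partly set by it. Those 3 held 3005 reads of 1110032A04Rik, 1244 of Acsbg1, and 567 of Tac2. For 1110032A04Rik, 30 of the other 36 libraries had no read, and the highest of them was OKMS 3NG+ replicate 2 with 2.10 CPM, which is 3 reads. The 4 highest conditions of each gene were the 4 OKMS Nanog-GFP- populations, but their order differed. 1110032A04Rik was highest in E-CAD+ 3NG- cells (130.2 ± 107.3 CPM, SD, n = 3), followed by E-CAD- 3NG- (51.0 ± 41.1), E-CAD- 2NG- (19.1 ± 15.1), and E-CAD+ 2NG- cells (18.7 ± 15.2). Acsbg1 was highest in E-CAD- 3NG- cells (76.1 ± 47.3 CPM), then E-CAD+ 3NG- (56.4 ± 44.1), E-CAD- 2NG- (29.0 ± 20.7), and E-CAD+ 2NG- cells (15.3 ± 7.76). Tac2 was highest in E-CAD- 2NG- (49.3 ± 41.4 CPM) and E-CAD- 3NG- cells (42.2 ± 40.5), then E-CAD+ 3NG- (22.5 ± 19.3) and E-CAD+ 2NG- cells (21.3 ± 21.7). By library, the E-CAD- 3NG- cells had 82.1, 66.6, and 4.36 CPM of 1110032A04Rik, 101.4, 105.3, and 21.5 CPM of Acsbg1, and 86.4, 33.5, and 6.81 CPM of Tac2, and the E-CAD- 2NG- cells had 40.6, 41.2, and 5.05 CPM of Acsbg1. Neighbours in each of these orders overlapped in range, and replicate 3 was the lowest library in all 4 populations. Within replicates 1 and 2 the mean of 1110032A04Rik was 192 CPM in E-CAD+ 3NG- and 74.3 CPM in E-CAD- 3NG- cells, and 26.8 and 27.8 CPM in the corresponding 2NG- cells.

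Zdbf2 had a different distribution. It was also highest in the 4 OKMS Nanog-GFP- populations, at 32.9 to 72.1 CPM over the 12 libraries (median 55.8), but these held only 40.8% of its 9299 reads. The next conditions were TNG MKOS ESCs with 32.9 and 60.8 CPM and E14 ESCs with 41.9 and 42.1 CPM, whose ranges overlapped those of OKMS cells. At the other end, MKOS 2NG- cells (3.37, 0.44, and 6.77 CPM) and MKOS 3NG- cells (4.80, 4.72, and 2.51 CPM) were the lowest of all 20 conditions, below WT MEFs (11.1 and 5.30 CPM). MKOS 3NG- lay wholly below WT MEFs, and MKOS 2NG- overlapped them. The OKMS and MKOS intermediates thus held the 2 ends of the Zdbf2 range. Isyna1 was high in sorted cells of both cassettes except OKMS 3NG+ and MKOS 3NG- cells. In MKOS 3NG- cells Isyna1 had a mean of 53.0 CPM, below TNG OKMS ESCs (66.0 CPM) and E14 ESCs (57.4 CPM). It was highest in MKOS 3NG+ cells (104.6 ± 16.5 CPM, SD, n = 3) and lowest in OKMS iPSCs in 2i (9.51 and 24.2 CPM), with the MEFs between 17.2 and 39.9 CPM.

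E-CAD+ 2NG- cells, which the choice did not use, gave the first tested comparison of the cassettes, though cells of the 2 gates with the same replicate number may come from the same culture, which the labels do not say. Of the 5 genes, 4 were higher in OKMS than in MKOS 2NG- cells, by edgeR's quasi-likelihood test with Benjamini-Hochberg adjustment over 15630 genes (FDR at most 0.05). Of all genes, 5.07% were called either way and 2.23% higher, and the median log2 difference of all genes was -0.0029. 1110032A04Rik was 32.4, 21.3, and 2.40 CPM in OKMS and 0 in the 3 MKOS libraries, at least 149-fold higher against the floor as a mean of libraries and 100.1-fold as a pooled level (FDR 0.00279). Tac2 was 44.7, 17.4, and 1.83 CPM against 4 reads in all MKOS libraries, a log2 difference of 6.96 ± 1.58 (SE; FDR 0.00528). Acsbg1 was 18.4, 21.0, and 6.42 CPM against at most 0.918 CPM, a log2 difference of 5.26 ± 1.26 (FDR 0.00884). The ranges of the 2 lipid genes and the neuropeptide gene did not overlap between the cassettes. How many of all genes were so separated was not computed. Zdbf2 was 50.1 ± 15.7 CPM in OKMS and 3.53 ± 3.17 CPM in MKOS (SD, n = 3), a log2 difference of 3.87 ± 0.51 (FDR 1.94e-06), close in size to that in the 3NG- gate, and its ranges did not overlap. Isyna1 did not pass the test (77.0, 91.2, and 49.0 CPM in OKMS against 55.8, 87.5, and 116.4 CPM in MKOS; log2 difference -0.18 ± 0.31, FDR 0.811). Without replicate 3 of OKMS the same 4 genes were called, with FDR 0.00148 for 1110032A04Rik, 0.00313 for Tac2, 0.00859 for Acsbg1, and 2.91e-06 for Zdbf2. Acsbg1 was not called without replicate 2 of MKOS 2NG- cells (log2 difference 4.76, FDR 0.0611). Leaving out 1 library at a time moved the log2 difference of Tac2 between 5.71 and 10.2, of Acsbg1 between 4.76 and 7.48, and of Zdbf2 between 3.37 and 4.68, where the highest values of Tac2 and Acsbg1 are without replicate 1 of MKOS.

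**Figure D3:**
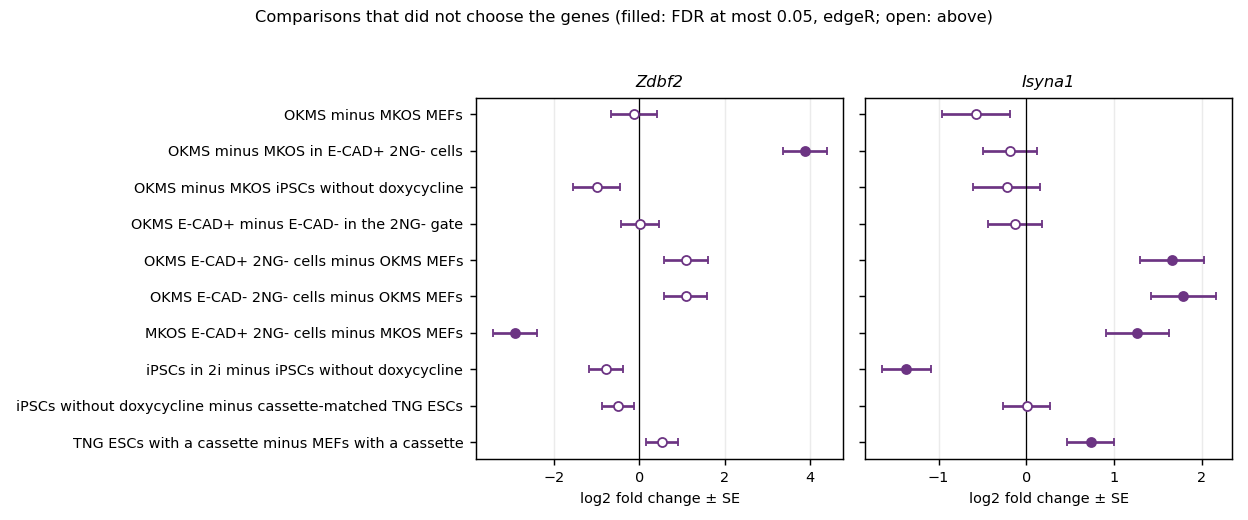
Log2 difference with its SE for Zdbf2 and Isyna1 in the tested comparisons; filled symbols passed the test (FDR at most 0.05). Zdbf2 is higher in OKMS than in MKOS 2NG- cells (3.87) and lower in MKOS 2NG- cells than in MKOS MEFs (-2.91), while Isyna1 is higher in 2NG- cells than in MEFs with both cassettes.

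No difference by E-CAD status passed the test in the OKMS 2NG- gate. edgeR called 0 of the 5 genes between E-CAD+ and E-CAD- cells, 0 passed an unadjusted p of 0.05, DESeq2 called 0, and 2.38% of all genes were called either way. The log2 difference, E-CAD+ minus E-CAD-, was 0.05 ± 1.01 (SE) for 1110032A04Rik, -1.13 ± 1.09 for Tac2, -0.84 ± 0.97 for Acsbg1, 0.01 ± 0.44 for Zdbf2, and -0.13 ± 0.31 for Isyna1. The standard errors of the first 3 genes leave room for differences of several fold, and in these genes replicate 3 was the lowest library of both E-CAD gates. The fit did not pair libraries by replicate number. By number, Tac2 was lower in E-CAD+ than in E-CAD- cells in all 3 pairs, and 1110032A04Rik and Acsbg1 went both ways. In the 3NG- gate, whose E-CAD+ libraries were used in the choice, the values were 1.42 ± 1.00, -0.85 ± 1.08, -0.35 ± 0.94, -0.02 ± 0.44, and -0.14 ± 0.31 in the same order. From the E-CAD+ 2NG- to the E-CAD+ 3NG- gate of OKMS, 1110032A04Rik differed by 2.77 ± 1.05 and Acsbg1 by 1.86 ± 0.98 on the log2 scale, against 0.04 ± 1.08 for Tac2, 0.11 ± 0.44 for Zdbf2, and -0.08 ± 0.31 for Isyna1.

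Against the MEFs they came from, OKMS cells had higher 1110032A04Rik and Isyna1 in both E-CAD gates, and higher Tac2 in the E-CAD- gate. In MEFs 1110032A04Rik was 0 and 0.344 CPM with OKMS, which is 3 reads, and it was 28.5, 27.1, and 1.63 CPM in OKMS E-CAD- 2NG- cells. The ratio of the pooled reads was 78.6 (exact 95% interval 26.6 to 384, counting error only; edgeR FDR 0.00914) for E-CAD- and 59.0 (19.98 to 288; FDR 0.00652) for E-CAD+ 2NG- cells. Tac2, at 2.41 and 2.86 CPM in OKMS MEFs, was 89.4, 51.8, and 6.69 CPM in E-CAD- 2NG- cells, a log2 change of 4.22 ± 1.49 (SE; FDR 0.0374), whereas 3.09 ± 1.42 in E-CAD+ 2NG- cells did not pass (FDR 0.0972). Acsbg1, at 1.95 and 3.53 CPM in OKMS MEFs, changed by 3.38 ± 1.27 to E-CAD- 2NG- cells (FDR 0.0522) and by 2.54 ± 1.23 to E-CAD+ 2NG- cells (FDR 0.119), and neither passed. No library of either gate was as low as an OKMS MEF library, but how many of all genes were so separated was not computed. Isyna1, at 19.1 and 30.1 CPM in OKMS MEFs, rose by 1.79 ± 0.37 (FDR 0.000372) and 1.66 ± 0.37 (FDR 0.000583). In all, 3 of 5 genes were higher in E-CAD- 2NG- cells, where 21.8% of all genes were called either way and 11.7% higher, and 2 of 5 in E-CAD+ 2NG- cells, where 29.2% and 15.7% were.

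These calls rest on few MEF libraries. Without replicate 1 or replicate 2 of the OKMS MEFs, 1110032A04Rik had FDR 0.0886 or 0.0756 in E-CAD- cells and 0.0666 or 0.0589 in E-CAD+ cells, and Tac2 had FDR 0.178 or 0.199 in E-CAD- cells. Tac2 was also lost without replicate 1 (FDR 0.115) or replicate 2 (FDR 0.0557) of the E-CAD- 2NG- cells. Acsbg1 was called without replicate 3 of the E-CAD- 2NG- cells (log2 change 3.90, FDR 0.0309). By DESeq2 only Isyna1 was called in either gate. The 1110032A04Rik change had an adjusted p of 0.151 and 0.132 there and the Tac2 change one of 0.105 in E-CAD- cells.

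With MKOS, Zdbf2 was lower in 2NG- cells than in MEFs. It was 17.5 and 36.3 CPM in MKOS MEFs and at most 6.77 CPM in MKOS 2NG- cells, and fell by 2.91 ± 0.52 (SE) on the log2 scale (edgeR FDR 3.9e-05). In OKMS it was 12.8 and 38.2 CPM in MEFs and 53.5, 63.8, and 32.9 CPM in E-CAD+ 2NG- cells, a change of 1.09 ± 0.51 that did not pass (FDR 0.101), except without replicate 2 of the OKMS MEFs (1.91, FDR 0.0491). The difference between the cassettes in this change was tested directly as an interaction, and Zdbf2 was the 1 gene of the 5 called, with 4.01 ± 0.74 (FDR 0.00149), where 1.35% of all genes were called either way and 0.557% higher. Leaving out 1 library at a time kept it between 3.49 and 4.90. For Tac2 the interaction was 6.66 ± 2.18 (FDR 0.122), for Acsbg1 4.01 ± 1.92 (FDR 0.350), for 1110032A04Rik, whose fitted value has no firm size because MKOS 2NG- cells had no read, the FDR was 0.277, and for Isyna1 it was 0.39 ± 0.49 (FDR 0.853). The Tac2 value came from 1 MKOS MEF library: without replicate 1 of the MKOS MEFs, which held all 35 of their Tac2 reads, it was -0.18. Isyna1 rose with MKOS too, from 30.6 and 39.9 CPM in MEFs to 55.8, 87.5, and 116.4 CPM in 2NG- cells (1.26 ± 0.36, FDR 0.00701). Its call was lost without replicate 3 of MKOS 2NG- cells (0.99, FDR 0.0543) or replicate 1 of MKOS MEFs (1.15, FDR 0.0862). In MKOS 27% of all genes were called either way, 15% higher and 12% lower, so 1 of 5 genes in each direction is near that background. No difference between the MEFs of the 2 cassettes passed the test in these genes: edgeR called 0 of 5, with 0 at an unadjusted p of 0.05 and 0 by DESeq2, against 0.102% of all genes called, and Zdbf2 differed by -0.13 ± 0.54. Acsbg1 was 3.53 and 1.95 CPM in OKMS and 0.921 and 1.33 CPM in MKOS MEFs (log2 difference 1.25 ± 1.42). Isyna1 was 19.1 and 30.1 against 30.6 and 39.9 CPM (-0.58 ± 0.39). The ranges of both did not overlap, and how many of all genes were so separated was not computed. 1110032A04Rik had only 3 reads with each cassette.

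**Figure D4:**
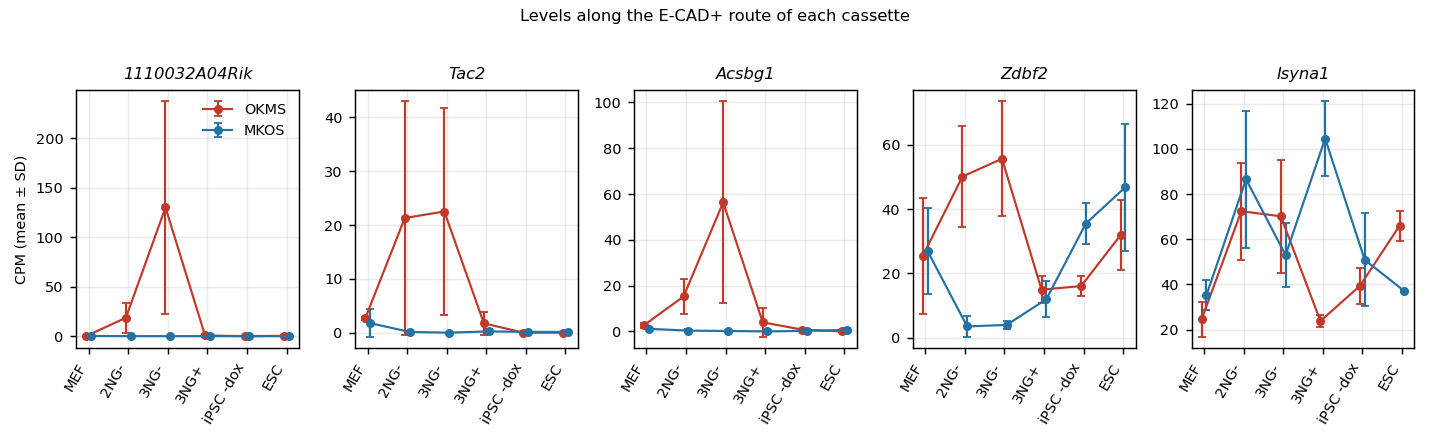
Mean CPM ± SD of each gene from MEFs through E-CAD+ 2NG-, 3NG-, and 3NG+ cells to iPSCs -dox and cassette-carrying TNG ESCs, with OKMS in red and MKOS in blue (n = 3 for sorted cells and n = 2 for others). The 2 cassettes have near-equal Zdbf2 in MEFs (25.5 and 26.9 CPM) and part in 2NG- cells (50.1 and 3.53 CPM), and Isyna1 parts in 3NG+ cells (23.8 and 104.6 CPM).

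The step from E-CAD+ 3NG- to 3NG+ cells, in which Nanog-GFP comes on, was part of the choice and is described only. With OKMS the mean of each of the 5 genes was lower in 3NG+ cells, but the ranges of Acsbg1 and Tac2 overlapped between the gates. 1110032A04Rik went from 3005 reads to 3, a ratio of 0.0012 (95% counting interval 0.000247 to 0.00351). Acsbg1 was 0, 11.2, and 0.715 CPM in OKMS 3NG+ cells and Tac2 1.01, 4.20, and 0 CPM, with log2 steps of -4.28 ± 1.19 and -4.08 ± 1.39 (SE). With MKOS, Tac2 went from no read to 7 reads, all in replicate 3 of 3NG+ cells, and so also had a step of the opposite sign, whereas Acsbg1 went from 5 reads to none and 1110032A04Rik had no read in either gate. In OKMS 3NG+ cells the highest of the 3 libraries for both Acsbg1 and Tac2 was replicate 2, the shallowest, which also had 28.0 CPM of Cd44 against 2.90 and 1.72 CPM in the other two. Whether it held more cells of other gates was not tested. Zdbf2 went down by a log2 step of -1.72 ± 0.47 to 10.1, 18.2, and 16.6 CPM with OKMS, and up by 1.72 ± 0.49 to 18.3, 7.70, and 9.97 CPM with MKOS. The 2 cassettes, 3.90 apart on the log2 scale in 3NG- cells, were thus 0.47 ± 0.47 apart in 3NG+ cells with overlapping ranges. Isyna1 did the reverse. It went down by -1.36 ± 0.32 to 21.6, 26.6, and 23.2 CPM with OKMS and up by 1.16 ± 0.31 to 123.2, 92.1, and 98.6 CPM with MKOS. Its cassettes overlapped in 3NG- cells and were -1.99 ± 0.33 apart, OKMS minus MKOS, in 3NG+ cells with no overlap. The difference between the 2 steps was -3.43 ± 0.67 for Zdbf2 and -2.52 ± 0.45 for Isyna1.

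In the stable pluripotent lines 1110032A04Rik was at most 0.656, Acsbg1 at most 2.20, and Tac2 at most 5.81 CPM. The cassettes were compared in iPSCs -dox, where no difference in the 5 genes passed the test. Between OKMS and MKOS iPSCs -dox edgeR called 0 of 5, with 0 at an unadjusted p of 0.05 and 0 by DESeq2, where 0.0192% of all genes were called. 1110032A04Rik had no read in any iPSC library. In iPSCs -dox Tac2 was at most 0.177 CPM and Acsbg1 at most 0.825 CPM, so the test could say little about these 3 genes. Zdbf2 was 13.8 and 18.3 CPM in OKMS and 31.1 and 39.9 CPM in MKOS iPSCs -dox, ranges that did not overlap, with a log2 difference of -0.99 ± 0.55 (SE; FDR 0.702). Isyna1 was 33.6 and 45.1 CPM in OKMS and 36.3 and 65.5 CPM in MKOS iPSCs -dox, so the ranges, apart in 3NG+ cells, overlapped there (-0.22 ± 0.38, FDR 0.977). In TNG ESCs Isyna1 was 70.6 and 61.3 CPM with the OKMS cassette and 37.4 and 36.8 CPM with the MKOS cassette, without overlap, and this difference was not tested. Relative to iPSCs -dox, OKMS 3NG+ cells were -0.70 ± 0.35 and MKOS 3NG+ cells 1.06 ± 0.36 in Isyna1, and -0.10 ± 0.52 and -1.56 ± 0.49 in Zdbf2. Those 4 values share libraries with the choice and were not tested.

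In 2i, Isyna1 was lower than in iPSCs -dox. It was 19.8 and 20.8 CPM with MKOS and 9.51 and 24.2 CPM with OKMS, and no 2i library reached the lowest -dox library. It fell by 1.37 ± 0.28 (SE) on the log2 scale over both cassettes (edgeR FDR 0.0018), where 4.34% of all genes were called either way and 2.45% lower. It was the 1 gene of the 5 called. Zdbf2 was 10.1 and 11.5 CPM in 2i with MKOS and 8.81 and 31.4 CPM with OKMS (-0.79 ± 0.40, FDR 0.292). Tac2 had 40 reads in OKMS and 8 in MKOS iPSCs in 2i against 0 and 2 in those -dox, with 5.81 CPM in replicate 1 of OKMS in 2i and at most 1.23 CPM in the others, and did not pass (FDR 0.162). Between iPSCs -dox and the TNG ESCs with the same cassette, edgeR called 0 of the 5 genes, with 0 at an unadjusted p of 0.05 and 0 by DESeq2, where 1.4% of all genes were called. Isyna1 differed by 0.00 ± 0.27 and Zdbf2 by -0.50 ± 0.38.

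Compared with the MEFs of the 2 cassettes, the TNG ESCs that carry them had lower Tac2 and Acsbg1 and higher Isyna1, in a comparison that called 50.9% of all genes, 26% higher and 25% lower. Tac2 was at most 0.291 CPM in the 4 ESC libraries against 0 to 3.58 CPM in the 4 MEF libraries (edgeR FDR 0.00722), and Acsbg1 at most 1.27 against 0.921 to 3.53 CPM (FDR 0.0390). The ranges overlapped in both. Isyna1 was 36.8 to 70.6 CPM in the ESCs and 19.1 to 39.9 CPM in the MEFs, a log2 difference of 0.73 ± 0.27 (SE; FDR 0.0223). Zdbf2 did not pass (0.53 ± 0.38, FDR 0.258). Tac2 was lost without replicate 1 of the MKOS MEFs, and no gene was called then. The call of Acsbg1 was lost without either library of MKOS MEFs (FDR 0.0618 and 0.0643), replicate 1 of OKMS MEFs (FDR 0.0818), replicate 2 of TNG MKOS ESCs (FDR 0.0887), or either library of TNG OKMS ESCs (FDR 0.0932 and 0.111). The call of Isyna1 was lost without replicate 1 of MKOS or OKMS MEFs (FDR 0.0727 and 0.0898), replicate 1 of TNG MKOS ESCs (FDR 0.0791), or replicate 2 of TNG OKMS ESCs (FDR 0.0567), and also with DESeq2 size factors (FDR 0.0742) and by DESeq2 (adjusted p 0.0781).

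Genes of the same pathways and the neighbours of the 5 genes were read in E-CAD+ 2NG- cells, OKMS against MKOS, beside the 5.07% of all genes called by edgeR either way and the 2.23% called higher. For the inositol genes without Isyna1, which include Impa1 and Impa2 (inositol monophosphatases) and the transporter Slc5a3, 12 of 13 were tested and 0 were called, with 4 at an unadjusted p of 0.05 and a median log2 difference of -0.56. For the tachykinin and kisspeptin genes without Tac2, 4 of 9 were tested and 0 called (2 at an unadjusted p of 0.05). The other 5 did not pass the filter on low counts, and the median of the 4 tested was -3.45. Kiss1r, the kisspeptin receptor gene, was 0.154 CPM in OKMS and 11.7 CPM in MKOS (FDR 0.0552) and Mme, which encodes a peptide-degrading enzyme, 2.46 and 12.5 CPM (FDR 0.0628), and neither passed. Among the acyl-CoA synthetase and elongase genes without Acsbg1, 1 of 17 tested was lower, the fatty acid elongase Elovl6 (64.8 CPM in OKMS and 121.7 CPM in MKOS, log2 difference -0.83 ± 0.24 (SE), FDR 0.0302), and 0 were higher (list median -0.28). For a sphingolipid list, added after the files were seen, 19 of 22 genes were tested and 0 called (3 at an unadjusted p of 0.05; median -0.23), among them Sptlc2, which encodes a catalytic partner of the 1110032A04Rik product.

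From MEFs to 2NG- cells, where 21.8% to 29.2% of all genes were called, the calls in the inositol list (1 to 3 of 12 tested), the acyl-CoA list (3 to 4 of 17), and the tachykinin list (1 of 4) were near or below that share. Tac1, which encodes substance P, was the 1 tachykinin gene of 4 tested that was called, and it was lower: it went from a mean of 26.9 CPM in OKMS MEFs to 0 in E-CAD- 2NG- cells (FDR 3.62e-05) and 0.118 CPM in E-CAD+ 2NG- cells (FDR 6.76e-05), and from 139 CPM in MKOS MEFs to 0.0984 CPM (FDR 8.36e-07). Tac1 and Tac2 thus went opposite ways in OKMS E-CAD- cells. Of 19 sphingolipid genes, 1 was higher and 8 lower in OKMS E-CAD- 2NG- cells, 2 were higher and 6 lower in OKMS E-CAD+ 2NG- cells, and 3 were higher and 3 lower in MKOS 2NG- cells. Sptlc2, a catalytic subunit of serine palmitoyltransferase, fell by 1.19 ± 0.34 (SE) on the log2 scale in OKMS E-CAD- cells (FDR 0.00913), and Ormdl2, a regulator of that enzyme, rose by 1.202 ± 0.28 (FDR 0.00131). Sptlc2 also fell in OKMS E-CAD+ 2NG- cells (-0.96 ± 0.34, FDR 0.0283) and was not called with MKOS. Ormdl2 rose with both cassettes, by 1.64 ± 0.28 in OKMS E-CAD+ (FDR 1.88e-05) and 1.86 ± 0.29 in MKOS 2NG- cells (FDR 3.28e-06). Both genes were named after their values were seen. Of 12 inositol genes, the kinase gene Itpk1 was higher in all 3 comparisons, by 2.08 and 2.75 with OKMS (E-CAD- and E-CAD+) and 3.00 with MKOS, and the transporter gene Slc5a3 was lower in OKMS E-CAD+ 2NG- cells (-3.51 ± 0.73, FDR 0.000269).

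At the Zdbf2 locus, 1 of 7 tested genes was called in 2NG- cells between the cassettes: Adam23, the nearest gene on the higher side, was 44.3 CPM in OKMS and 15.6 CPM in MKOS, a log2 difference of 1.57 ± 0.38 (SE; edgeR FDR 0.00841). Adam23 lies at chr1:63445717-63596111. The list median was 0.33. In 2i it was lower than in iPSCs -dox, at 4.51 against 36.3 CPM (-3.24 ± 0.37, FDR 1.69e-07), a comparison in which Zdbf2 did not pass. In ESCs with a cassette 5 of the 7 locus genes were higher than in MEFs and 1 lower, against 50.9% of all genes called. Of the 5 tested neighbours of Tac2, Tmem194 was called, at 9.58 CPM in OKMS and 2.36 CPM in MKOS 2NG- cells (2.08 ± 0.64, FDR 0.0466). No tested neighbour of 1110032A04Rik (4 tested), Acsbg1 (5), or Isyna1 (5) was called by edgeR there (2, 0, and 0 at an unadjusted p of 0.05).

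The genes whose mean log2(CPM + 1) over the 20 conditions was most like each member were named by Pearson's r among 15629 others, as a description. The conditions share libraries, cultures, and a common division into OKMS intermediates and the rest, so r has no independent points to test. For 1110032A04Rik these were Aplnr (r = 0.985), the apelin receptor gene, Ucn3 (0.965), the urocortin peptide gene, and Acsbg1 (0.958). For Tac2 they included Acsbg1 (0.937) and Stac (0.928), and for Acsbg1 they included 1110032A04Rik and Tac2. Ucn3 and Stac were low throughout, at 1.14 and 1.99 CPM in OKMS E-CAD+ 3NG- cells. For Zdbf2 the likest genes were Pcx (0.870), the pyruvate carboxylase gene, Nfasc (0.845), and Shisa2 (0.836), and for Isyna1 they were Dcps (0.815), Psmb10 (0.809), and Myc (0.808). Dcps encodes an enzyme of mRNA decay, Psmb10 a proteasome subunit, and Myc one of the cassette factors. Among the 5 members, 1110032A04Rik, Tac2, and Acsbg1 had r of 0.898 to 0.958 with each other, Zdbf2 0.549 to 0.566 with those 3, and Isyna1 0.208 to 0.466 with the other 4.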

How the data were processed

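The authors deposited 1 table of raw counts, in which STRT reads from 48 libraries were counted per transcript without normalization. The submitters' processing notes name Bowtie 0.12.7 and mm10, whereas the methods name an earlier mouse build. The positions in the file lay inside the RefSeq gene on GRCm38.p6 for 99.0% of 20607 shared symbols, so mm10 was used. Per the file headers, a read with several positions was assigned to the most 5′ exonic one. Counting 5′ ends makes a level depend on the annotated start. No molecular identifiers are named in the sources used here.

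CPM was computed from the deposited counts. Tests used edgeR 4.0.16 (R 4.3.3), with TMM factors, its default filter on low counts by condition, 1 coefficient for each of 20 conditions, and a quasi-likelihood fit to all 48 libraries (common dispersion 0.217), with Benjamini-Hochberg adjustment over the 15630 genes tested, all 5 members included. Pooled ratios have exact 95% intervals. The fit was tested on simulated data. Labels do not say that replicates came from separate cultures, so p-values measure the spread between these libraries, which may be technical. Alternatives were other scalings, no filter, DESeq2 1.42.0, the compared libraries alone, a replicate term, and omission of libraries, among them the 7 that the study's table averages leave out. The members and lists were chosen with earlier results of these data known. The 3 genes most like each member were named by Pearson's r, except 1 item that is not reported here, list genes where called, and Sptlc2 and Ormdl2 after their values were seen.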

Additional observations from a re-analysis of the deposited data

Results flagged for a closer look

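The change of Zdbf2 from MEFs to E-CAD+ 2NG- cells differed between the cassettes by the test of the difference itself. OKMS minus MKOS was 4.01 ± 0.74 (SE) on the log2 scale (edgeR interaction term, FDR 0.00149), with a change of 1.09 in OKMS that did not pass on its own and one of -2.91 ± 0.52 in MKOS that did.

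The steps of Zdbf2 and Isyna1 from 3NG- to 3NG+ cells had opposite signs with the 2 cassettes. OKMS minus MKOS was -3.43 for Zdbf2 and -2.52 for Isyna1 on the log2 scale. Opposite steps were a ground of the choice, so the difference was not tested and is no independent result. No condition had the 4 libraries needed to look for single libraries that lie far from the rest.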

How the results depend on the processing

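The 5 genes were refitted under 7 alternatives and 25 omissions of 1 library. The 4 calls in E-CAD+ 2NG- cells between the cassettes were made under all 7 and in every omission but 1, so 3 to 4 genes were called. Omissions reused the gene set and dispersion trend of the full fit, and a group left with 1 library was assumed to vary like the others. Over omissions the calls ranged from 1 to 4 from OKMS MEFs to E-CAD- 2NG- cells, 1 to 2 from OKMS MEFs to E-CAD+ 2NG- cells, 1 to 2 from MKOS MEFs to 2NG- cells, and 0 to 3 between ESCs and MEFs. In the other tested comparisons omissions did not change the number of calls.

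From OKMS MEFs to E-CAD- 2NG- cells, 5 genes were called with no filter and 1 by DESeq2, against 3. From OKMS MEFs to E-CAD+ 2NG- cells, 5 were called with no filter, 5 without the 7 libraries, and 1 by DESeq2, against 2. For the difference between the cassettes, 4 were called with no filter and 3 without the 7 libraries, against 1, and in 2i 2 with no filter, against 1. The causes were not tested. In the fit to the compared libraries alone, Tac2 and Acsbg1 did not pass the filter for MKOS MEFs to 2NG- cells and gave no value. With replicate number as a block, 4 genes were called from OKMS MEFs to E-CAD+ 2NG- cells, 2 in the difference between the cassettes, and 0 between E-CAD+ and E-CAD- 2NG- cells. Whether replicate numbers pair the sorted libraries was not settled, and the main fit was unpaired. Of 24 libraries, 20 correlated best with their own number. Over 84 same-number pairs the mean correlation of deviations was 0.0939 (lowest -0.051, 27 above 0.1). By number, Tac2 was lower in E-CAD+ than in E-CAD- cells in all 3 pairs of each OKMS gate, and 1110032A04Rik was higher in all 3 of the 3NG- gate.

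Values that changed sign were the small Isyna1 difference in 2NG- cells (0.33 without the 7 libraries, and from -0.41 to 0.093 over omissions of 1 library, above 0 without replicate 3 of either cassette) and 2 Tac2 values. These were the change from MKOS MEFs to 2NG- cells (-6.84 to 3.27) and the difference between the cassettes (-0.18 to 9.93), with the sign changed without MKOS MEF replicate 1, where the remaining MEF library had no Tac2 read. With 2 or 3 libraries a group and a floor of up to 2.10 CPM, small differences in the low genes were not detectable.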
